A study of Homo sapiens with 20 samples.

Results

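The tubulin isotypes described here are the products of 9 genes, namely TUBA1A, TUBA1B, TUBA1C, TUBA4A, TUBB2A, TUBB2B, TUBB3, TUBB6 and TUBG1. They were followed by RNA-Seq of polyA RNA in neural progenitor cells made from the H1 line of human embryonic stem cells. The progenitors were kept in medium with FGF, a growth factor that sustains their division, and day 0 is the culture before the medium was changed. Neuronal differentiation was then started in all later groups by taking FGF away and adding BDNF, a neurotrophic factor. Cells were collected at day 0 and then after 1, 2, 4, 5, 11 or 18 days. The labels give 20 samples, with 3 cultures at each day except day 5, which has 2 because the submitters removed an outlier. Cells collected at days 5, 11 and 18 had been replated at day 4 on poly-D-lysine and laminin, so day 5 differs from day 4 in the culture surface as well. All samples come from a single line, and none of the groups is a primary tissue.

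The members were found by gene symbol among 20237 coding gene records, and for each symbol the record with the highest mean level was kept. The 9 symbols led to 7 distinct records, 3 of which carry several symbols. TUBA1A and TUBA1B are 1 record. TUBB2B and TUBB6 also led to 1 record, which lies at the TUBB2B gene. The record of TUBB3 carries the names MC1R, TUBB2C and TUBB3. The deposited values are in FPKM, a count of sequenced fragments divided by transcript length and by all mapped fragments, so that levels of different genes can be set side by side per length. Each record has a single deposited value per day, estimated over all cultures of that day. There is no value for a single culture, so no replicate error, confidence interval or test can be given, and the depth behind each value is unknown. A change is counted below only where it reached 2-fold on the log2(FPKM + 0.1) scale.

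Microtubules are hollow polymers of alpha- and beta-tubulin, which join as a dimer before they are built in. Vertebrate genomes hold several genes for each class, called isotypes, whose proteins differ mainly in their acidic C-terminal tails, where glutamate residues are modified by enzymes and where motors and other proteins bind. Gamma-tubulin, the product of TUBG1, is not part of the microtubule wall but sits in ring complexes that start new microtubules at the centrosome. TUBB3 is widely used as a marker of young neurons, TUBA1A and TUBB2B are prominent in the developing brain, and mutations in TUBA1A, TUBB2B, TUBB3 and TUBG1 are known causes of malformations of the human cortex.

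The ends of the coding sequences of 6 members, which encode the tails, were compared. They were read from the GENCODE annotation of GRCh37, which has the same coordinates as the hg19 assembly of the deposited files. Each line gives the last 60 coding bases with the stop codon, 5′ to 3′ on the coding strand, and capitals mark the glutamate codons GAA and GAG in the reading frame.
TUBA4A: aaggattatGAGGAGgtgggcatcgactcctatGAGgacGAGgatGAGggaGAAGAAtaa
TUBB2A: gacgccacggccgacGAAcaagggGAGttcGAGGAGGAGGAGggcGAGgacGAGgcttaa
TUBB2B: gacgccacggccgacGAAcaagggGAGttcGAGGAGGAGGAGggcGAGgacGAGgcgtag
TUBB3: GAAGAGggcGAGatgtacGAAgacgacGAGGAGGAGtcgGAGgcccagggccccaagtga
TUBB6: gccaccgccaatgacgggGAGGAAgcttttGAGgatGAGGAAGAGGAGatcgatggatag
TUBG1: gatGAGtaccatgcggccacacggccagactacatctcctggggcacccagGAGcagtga
These stretches lie at chr2:220115074-220115133 (minus strand, TUBA4A), chr6:3154097-3154156 (minus strand, TUBB2A), chr6:3224985-3225044 (minus strand, TUBB2B), chr16:90002153-90002212 (plus strand, TUBB3), chr18:12326070-12326129 (plus strand, TUBB6) and chr17:40767000-40767059 (plus strand, TUBG1). TUBB2A and TUBB2B differed at 2 of 60 bases, in the last sense codon and the stop codon, and the residues encoded here are identical.

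Of the 20 codons shown, 7 code for glutamate in TUBA4A. TUBB2A, TUBB2B and TUBB3 have 8 each and TUBB6 has 7, whereas TUBG1 has 2. Many alpha-tubulins end on a tyrosine, the residue that vasohibins remove and that tubulin tyrosine ligase adds back. TUBA4A ends on a glutamate codon before the stop.

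Tubulin mRNAs also share their first codons. When free tubulin is abundant, the peptide that these codons encode is recognised on the ribosome by TTC5, and the mRNA is broken down, a feedback known as tubulin autoregulation. The first 24 coding bases of 4 members are shown, with the first 4 codons in capitals.
TUBA1A: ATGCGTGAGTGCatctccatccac
TUBB2B: ATGCGTGAGATCgtgcacatccag
TUBB3: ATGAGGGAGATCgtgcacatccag
TUBG1: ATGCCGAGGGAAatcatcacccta
The start that was searched is methionine, arginine, glutamate and then isoleucine or cysteine, in any codons for these residues and at the first codon on the coding strand only. It was present in all alpha and beta members and absent from TUBG1. Among 19396 genes with a coding start in the annotation, 19, or 0.0980%, had it. The TUBA1A bases are split by an intron, between chr12:49580596 and 49582762, while those of TUBB2B lie at chr6:3227754-3227777 on the minus strand, those of TUBB3 at chr16:89989810-89989833 on the plus strand and those of TUBG1 at chr17:40761756-40761779 on the plus strand.

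How far the records can be read as single genes follows from their positions and sequences. The TUBA1A and TUBA1B record runs over chr12:49521568-49582861 on the minus strand, and of its 5267 exon bases 60.8% lie in exons of TUBA1B and 36.9% in exons of TUBA1A. The coding sequences of these 2 genes are 97.2% identical. The TUBB3 record, chr16:89984287-90002505 on the plus strand, has 62.3% of its 8291 exon bases in exons of TUBB3 and 27.6% in exons of MC1R, a melanocortin receptor gene next to it, so its value is the sum of both. TUBB2A and TUBB2B, neighbours on chromosome 6, are 98.1% identical in their coding sequences. Of the windows of the read length in the TUBB2A transcript, 53.6% occur unchanged in TUBB2B transcripts, and 44.6% of the TUBB2B windows occur in TUBB2A transcripts. How the authors' programs shared such reads between these genes was not tested. For TUBB3, 5.29% of the windows occur in a gene elsewhere, and for TUBA4A and TUBB6 none of 1949 and 1779 windows does.

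The alpha-tubulins were dominated by the merged record of TUBA1A, the main alpha-tubulin of young neurons, and TUBA1B, which most cell types use. Its level was 3398 FPKM at day 0, 1895 at day 1, 2197 at day 2, 2331 at day 4, 2778 at day 5 and again 3301 at day 11. Among coding records with a value on the day, it was the highest at days 0, 5 and 11, and ranked 3 at days 1, 2 and 4. At day 18 the file lists 0 with a status that marks too many fragments to estimate, and the value was treated as missing. From day 1 to day 11 each value was higher than the one before.

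TUBA1C, another widely used alpha isotype on chromosome 12 (chr12:49621709-49667113, plus strand), followed a similar course at a lower level. It had 356 FPKM at day 0, 206 at day 1, 189 at day 2, 222 at day 4, 262 at day 5, 328 at day 11 and finally 312 at day 18. The drop from day 0 to day 1 was 1.73-fold, and the level at day 18 was 0.878 times that at day 0. TUBA4A (chr2:220115001-220119330, minus strand), an isotype known from brain and platelets, was very low, between 0.109 and 0.281 FPKM over the 7 days with no order in time. The merged record made up between 89.6% and 91.5% of the FPKM of all alpha isotypes on days 0 to 11, and TUBA1C between 7.89% and 9.74%. Because the main alpha isotypes are merged in that record, a shift between TUBA1A and TUBA1B cannot show in these shares. The total of the class was 3767 FPKM at day 0, 2115 at day 1 and 3643 at day 11. These shares and totals leave out a plus-strand record named TUBA1A that lies inside an exon of TUBA1B. With it, the total was 4971 FPKM at day 0, 2691 at day 1 and 4167 at day 11, so the return to the day 0 level depends on that choice.

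Among the beta-tubulins, TUBB2B was the most abundant member on every day, although TUBB, which is not a member, was higher up to day 5. Its record lies at chr6:3224496-3227968 on the minus strand. The level was 570.3 FPKM at day 0, 576 at day 1, 735 at day 2, 663 at day 4, 703 at day 5, 939.9 at day 11 and, a little lower, 862 at day 18. The value at day 18 was 1.51 times that at day 0, the largest increase among the members over the whole course. Its rank among coding records with a value went from 42 at day 0 to 9 at day 18. The day 18 rank leaves out the merged alpha record, which has no value there.

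TUBB3, the neuronal class III beta-tubulin, had 382 FPKM at day 0, 299 at day 1, 345 at day 2, 352 at day 4, 413 at day 5, 647 at day 11 and then 502 at day 18. It was already high in the day 0 culture. Its lowest value was that of day 1, and its highest, at day 11, was 1.70 times that of day 0. TUBB2A (chr6:3153904-3157783, minus strand), the close copy of TUBB2B, varied least. It had 302 FPKM at day 0, 228 at day 1, 262 at day 2, 215 at day 4, 248 at day 5, 285 at day 11 and then 298 at day 18, so that its highest value was 1.40 times its lowest. TUBB2B exceeded TUBB2A 1.89-fold at day 0 and 2.90-fold at day 18, with the widest ratio, 3.29, at day 11.

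**Figure D1:**
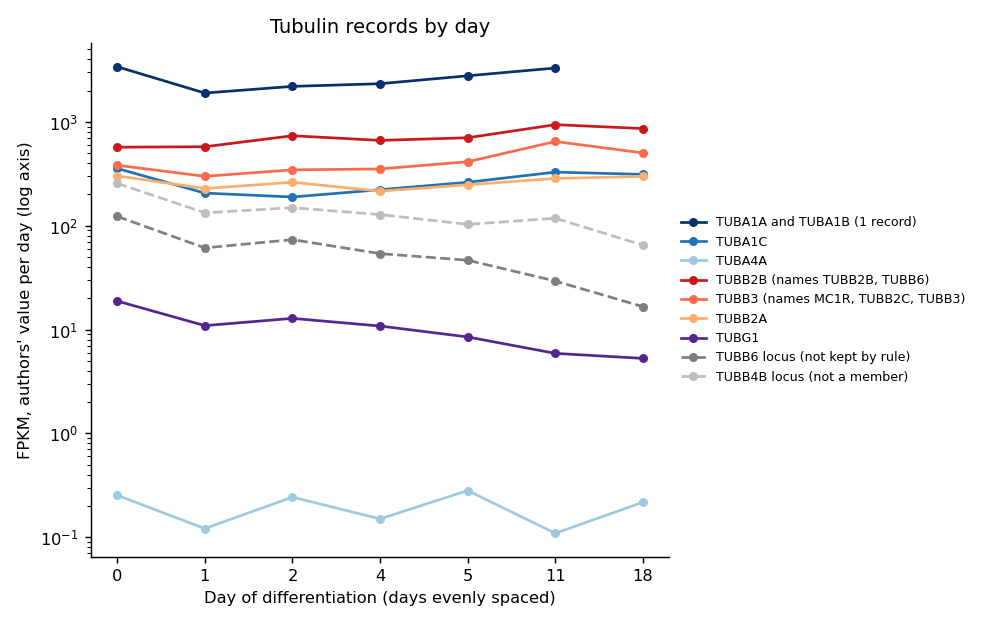
Levels of the tubulin records in FPKM (log axis) by day of differentiation (days evenly spaced), with 1 value per record and day as the authors pooled it and no error bar. TUBA1A and TUBA1B, 1 record, have no value at day 18; TUBB2B and TUBB3 end above their day 0 level, and TUBG1 and the records at the TUBB6 and TUBB4B loci end furthest below it.

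The symbol TUBB6 needs a separate account, because the record kept for it lies at TUBB2B. Another record that carries the names TUBB2A and TUBB6 lies at chr18:12308240-12329822 on the plus strand, and all of its 3313 exon bases fall in exons of TUBB6, a widely expressed beta-tubulin. Of these bases, 638 also overlap AFG3L2 on the opposite strand. This record at the TUBB6 locus was singled out after its values were seen. Its level was 123 FPKM at day 0, 61.1 at day 1, 73.4 at day 2, 53.8 at day 4, 46.5 at day 5, 29.3 at day 11 and only 16.6 at day 18. The day 18 level was 7.41-fold below that of day 0, so the symbol TUBB6 stands for a higher level on the record kept by rule and for a much lower one at its own gene. The ratio of TUBB2B to the TUBB6 locus went from 4.63 at day 0 to 51.9 at day 18.

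TUBG1, the main gamma-tubulin (chr17:40761358-40767254, plus strand), was the only member record past 2-fold between day 0 and day 18. It had 18.8 FPKM at day 0, 10.9 at day 1, 12.8 at day 2, 10.8 at day 4, 8.48 at day 5, 5.89 at day 11 and in the end 5.27 at day 18, which is 3.56-fold lower than at day 0. Of its 1949 exon bases, 331 overlap RETREG3 on the opposite strand, and 14.8% of its windows of the read length also occur in TUBG2, the second gamma-tubulin gene.

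Between day 0 and day 18, 0 of the 6 member records with a value at both days were at least 2-fold higher and 1 was at least 2-fold lower. Over the 11791 coding records with a mean of at least 1 FPKM and values at both days, 7.57% were at least 2-fold higher and 29.9% at least 2-fold lower. Between day 0 and day 11, 0 of 7 member records were higher and TUBG1 was lower, against 7.58% and 15.3% of coding records. Counts of 0 or 1 among so few records cannot be told from these shares. The deposited values moved down as a whole. The median log2 change of coding records was -0.32 over days 0 to 11 and -0.60 over days 0 to 18, while the FPKM summed over all records went from 413978 at day 0 to 251156 at day 18.

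Set against that median, the picture of the beta members changes. On the log2 scale TUBB2B changed by 0.60 from day 0 to day 18 as deposited, by 1.20 relative to the median coding record and by 1.32 as a share of summed FPKM. TUBB3 changed by 0.39, 0.99 and 1.12 on the same 3 scales. TUBA1C changed by -0.19 as deposited but by 0.41 relative to the median, and TUBB2A by -0.02 and 0.58, so their direction depends on the scale. TUBG1 was lower on each scale, by -1.81, -1.21 and -1.11, and so was the record at the TUBB6 locus, by -2.88, -2.28 and -2.17. Relative to the median coding record, 4 of the 5 members with a mean of at least 1 FPKM and a value at day 18 lay above it and 1 below.

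**Figure D2:**
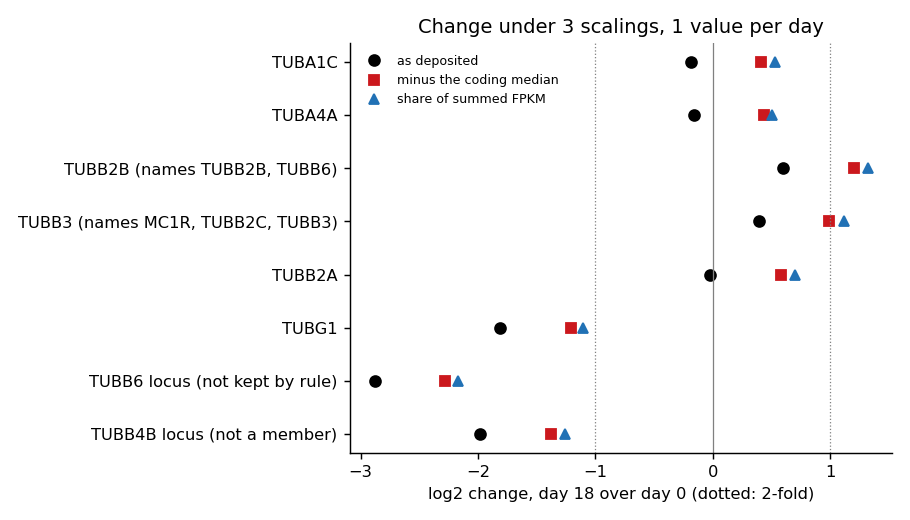
Log2 change from day 0 to day 18 of each record with a value at both days, as deposited (black circles), minus the median of coding records (red squares) and as a share of the FPKM summed over all records (blue triangles). TUBB2B lies past the dotted 2-fold line only on the latter 2 scales, and TUBG1 lies past it on all 3.

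Step by step, 0 of the 7 member records moved by 2-fold between neighbouring days, in a course where few coding records did. For days 0 to 1, 3.60% were at least 2-fold higher and 3.09% lower. These shares were 0.136% and 0.144% for days 1 to 2, 0.127% and 0.653% for days 2 to 4, and 0.254% and 0.0509% for days 4 to 5. The long intervals moved more, with 1.80% and 4.24% for days 5 to 11 and 0.840% and 3.71% for days 11 to 18. Below that threshold, the first day was the step at which the most members were lower. From day 0 to day 1, 5 of the 6 member records with a mean of at least 1 FPKM were lower, with a median log2 change of -0.59 against -0.11 over coding records. The merged TUBA1A and TUBA1B record changed by -0.84, TUBA1C by -0.79, TUBG1 by -0.78, TUBB2A by -0.40 and TUBB3 by -0.35, while TUBB2B, at 0.01, was level. The records at the TUBB6 and TUBB4B loci changed by -1.01 and -0.94 in the same step.

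From day 5 to day 11 the direction was the opposite. The same number of records, 5 of 6, were higher, with a median of 0.29 against -0.16 over coding records. TUBB3 changed by 0.65, TUBB2B by 0.42, TUBA1C by 0.32, the merged alpha record by 0.25 and TUBB2A by 0.20, whereas TUBG1 changed by -0.52. Days 1 to 2 and 4 to 5 also had 5 of 6 higher, with medians of 0.21 and 0.22 against 0.04 and -0.07 over coding records. The shares of coding records lower or higher by any amount are not given here, so these counts cannot be set against them. In the step that spans the replating, from day 4 to day 5, the 5 alpha and beta member records with a mean of at least 1 FPKM changed by between 0.09 and 0.25 and TUBG1 by -0.35. The 7 member records together held 1.21% of the FPKM summed over all records at day 0, 0.900% at day 1, 1.26% at day 5 and a higher 1.73% at day 11.

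The beta isotypes have records at separate genes, so that the make-up of the class can be followed record by record. Of the 8 records, 4 carry several symbols, and that of TUBB3 includes MC1R. How reads shared by TUBB2A and TUBB2B were divided between them was not tested. All 8 beta records with a value were put together, including TUBB, the constitutive beta-tubulin of most cells, and TUBB4B, the gene behind the record listed under its older symbol TUBB2C. The record of TUBB also carries the name TUBB2C. TUBB held 43.1% of beta-tubulin FPKM at day 0 and 27.7% at day 18. TUBB2B held 19.8% at day 0, 28.0% at day 1, 31.2% at day 5 and as much as 35.2% at day 18. TUBB3 held 13.3% at day 0, 22.0% at day 11 and 20.5% at day 18. TUBB2A stayed between 9.64% and 12.2%.

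The smaller beta isotypes moved in both directions. The record at the TUBB4B locus went from 8.91% at day 0 to 2.65% at day 18, and that at the TUBB6 locus from 4.28% to 0.678%. TUBB4A, a beta-tubulin of brain, went from 0.0213% to 1.04%. A share within the class does not depend on how the days were scaled against each other. Taken among the 3 beta member records alone, TUBB2B went from 45.5% at day 0 to 51.9% at day 18, TUBB2A from 24.1% to 17.9%, and TUBB3 from 30.4% to 30.2% by way of 34.6% at day 11. The pool of members leaves out TUBB, TUBB1, TUBB4A and the records at the TUBB4B and TUBB6 loci.

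**Figure D3:**
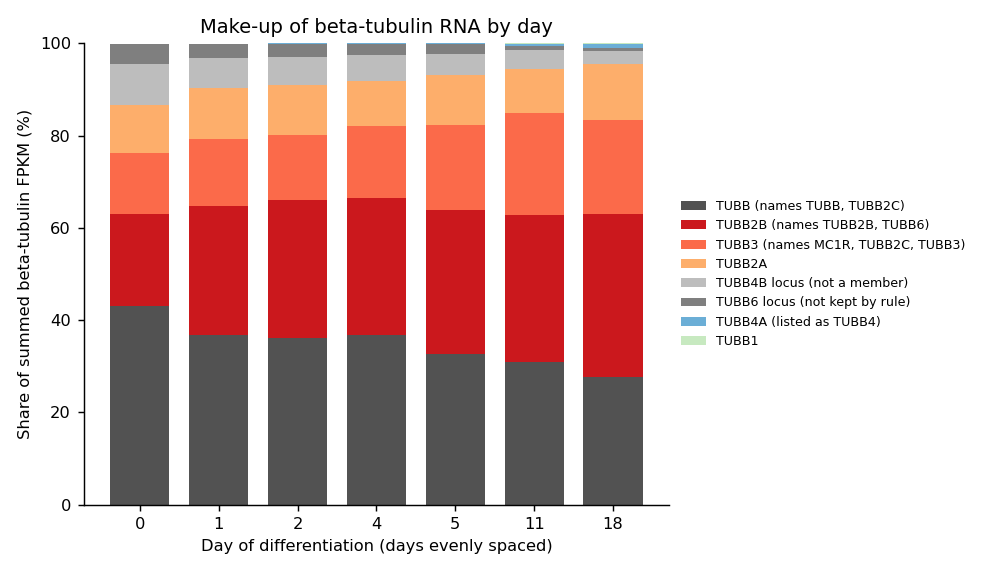
Share of each beta-tubulin record in the summed beta-tubulin FPKM (%) on each day, as stacked bars that add to 100. TUBB goes from 43.1% at day 0 to 27.7% at day 18, TUBB2B from 19.8% to 35.2%, and TUBB3 from 13.3% to 20.5%.

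The summed alpha FPKM was 1.31 times the summed beta FPKM at day 0, 1.03 at day 1, 0.978 at day 2, 1.15 at day 4, 1.35 at day 5 and again 1.24 at day 11. At day 18 the ratio cannot be given, because the main alpha record has no value. A further record named TUBA1A was left out of these sums. It is a single exon on the plus strand at chr12:49521742-49522719, and all 978 of its bases lie inside an exon of TUBA1B on the other strand. Its level was 1204 FPKM at day 0 and 524 at day 11, which is 0.354 and 0.159 times that of the merged record. The library kit is not described as stranded, so reads of this record and of TUBA1B cannot be told apart. With this record included, a choice made after seeing the data, the alpha sum was 4971 FPKM at day 0 and 4167 at day 11, and the ratio to beta was 1.73 at day 0 and 1.42 at day 11.

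The tissue label was compared with marker genes, summed per list in FPKM. Neuronal markers other than tubulins, 7 of 8 with a record, went from 402 at day 0 to 232 at day 1, before reaching 1119.6 at day 18. Most of the day 18 sum was STMN2, a tubulin-binding protein of growth cones. It had 32.3 at day 0, 45.2 at day 1 and 727 at day 18. DCX, a microtubule-associated protein of migrating neurons, had 5.46, 11.4 and 88.0 on the same days. GAP43, a growth cone protein, went from 193 to 55.7 at day 1 and back to 173 at day 18. NEFL, a neurofilament, went down from 153 to 68.1. Progenitor markers (6 of 6) summed to 3642 at day 0, 4639 at day 2 and then 1805 at day 18. Most of that sum is VIM, with 2948 at day 0 and 1493 at day 18. NES went down from 513 to 180.4, SOX2 from 126 to 66.1 and MSI1 from 47.8 to 35.2. PAX6 went up from 4.31 to 10.4 and HES5 from 1.95 to 20.0. Markers of dividing cells (6 of 6) summed to 507 at day 0, 266 at day 1, 226 at day 11 and just 87.5 at day 18. Mesenchymal markers (6 of 6, with COL1A1 listed at 0 on every day) summed to 641 at day 0 and 54.8 at day 18, mainly TAGLN and COL3A1.

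Other cell types were low. Astrocyte markers (4 of 4) lay between 0.821 and 9.22, with GFAP at most 0.186 FPKM. Pluripotency markers (3 of 4) went from 9.82 to 2.29, with POU5F1 and NANOG near 0. The neuronal sum was higher at day 11 than at day 1, as were all alpha and beta member records with a mean of at least 1 FPKM. Against day 0 the sum was also higher at day 11, at 899 against 402, as were TUBB2B and TUBB3. The merged alpha record, TUBA1C and TUBB2A were not, with log2 changes of -0.04, -0.12 and -0.08. The neuronal sum was higher still at day 18, where TUBB2B and TUBB3 were below their day 11 levels. Most of that sum was STMN2, with 517 at day 11 and 727 at day 18. Between day 0 and day 18 the sums for progenitor, dividing and mesenchymal cells moved the same way as TUBG1 and the TUBB6 and TUBB4B loci. The low astrocyte and pluripotency sums and the median coding record moved that way too. The part of these cell types in the tubulin values was not tested. In bulk RNA, fewer cells of a type and less RNA per cell cannot be told apart.

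Other tubulin isotypes were described by the same rule. Of 11 further records, 6 had a mean of at least 1 FPKM, of which 1 was at least 2-fold higher and 2 at least 2-fold lower at day 18 than at day 0, near the 7.57% and 29.9% of coding records for so few genes. The record at the TUBB4B locus, 256 FPKM at day 0 and 64.9 at day 18, is not in this count, since its symbol led to the record of TUBB. TUBB4A was the largest increase, with 0.613 FPKM at day 0, 1.04 at day 1, 1.33 at day 2, 2.78 at day 4, 5.37 at day 5, 13.5 at day 11 and in the end 25.3 at day 18. This isotype was higher at each day than at the day before. TUBG2, the second gamma-tubulin, went from 22.0 to 7.70, and its ratio to TUBG1 lay between 1.17 and 1.65 over the days. TUBD1, delta-tubulin of centrioles, went from 4.97 to 1.52. TUBB itself went from 1239 to 679, short of 2-fold. The median log2 change of the 6 was -0.56, near the -0.60 of coding records.

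Proteins that fold tubulin were next. New tubulin chains pass from prefoldin to the CCT ring, and the tubulin cofactors TBCA to TBCE then join alpha and beta into a dimer. All 14 CCT and prefoldin subunits were measured at a mean of at least 1 FPKM, and 0 were at least 2-fold higher and 8 at least 2-fold lower at day 18, against 7.57% and 29.9% of coding records. Their median log2 change was -1.04 against -0.60 for coding records. CCT5 went from 139 to 38.0 FPKM, CCT2 from 221 to 86.5, CCT6A from 125 to 49.0 and CCT7 from 216 to 85.0. Relative to the median coding record, CCT5 alone stayed past 2-fold. Of the 8 cofactors and related factors, 0 moved by 2-fold, with a median of -0.51. ARL2, a GTPase that works with TBCD and whose record also carries SNX15, went from 46.8 to 26.0, TBCA from 83.9 to 51.7, TBCE from 15.2 to 9.46 and TBCB from 80.4 to 54.8. TTC5, the factor of tubulin autoregulation, was level at 8.62 and 7.65.

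The partners of gamma-tubulin were also mostly lower as deposited. Of 10 genes of the gamma-tubulin complex and its anchors, 0 were at least 2-fold higher and 5 at least 2-fold lower, against 7.57% and 29.9% of coding records. Their median log2 change was -0.97 against -0.60. TUBGCP6, a ring subunit, was slightly higher, at 9.74 against 8.86 FPKM. After recentring on the median coding record, 2 of the 5 were still at least 2-fold lower. MZT1, a small subunit of the ring complex listed as C13orf37, went from 23.5 to 7.61 FPKM, and NEDD1, which brings the ring to the centrosome, from 22.1 to 7.22. TUBGCP5, a ring subunit, went from 9.04 to 3.90, and CDK5RAP2, an activator of nucleation, from 28.0 to 13.2.

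Enzymes that modify tubulin tails and lumen came next. Of 16 with a mean of at least 1 FPKM, 3 were at least 2-fold higher and 4 at least 2-fold lower, against 7.57% and 29.9% of coding records, with a median of -0.09. The count lower is thus no larger than the share over coding records. ATAT1, the acetyltransferase of alpha-tubulin, listed as C6orf134, had 23.4 FPKM at day 0, 35.2 at day 5, 60.7 at day 11 and finally 69.8 at day 18. VASH2, which removes the C-terminal tyrosine, went from 4.05 to 9.11. SIRT2 was also at least 2-fold higher, at 21.5 against 10.6, while HDAC6 was level, at 23.5 against 22.7. TTLL4, a polyglutamylase, went from 15.8 to 5.32. TTLL3, a glycylase whose record also carries ARPC4, a subunit of the actin-nucleating Arp2/3 complex, went from 120.5 to 51.7. TTL, the ligase that puts the tyrosine back, went from 18.7 to 8.60. VASH1, the more abundant vasohibin, was also lower at day 18, at 10.9 against 17.8. TTL was named through its likeness to TUBG1, below. Relative to the median coding record, 6 enzymes were at least 2-fold higher and 0 lower. The share of coding records past 2-fold on that scale is not given here, so these counts cannot be set against it.

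**Figure D4:**
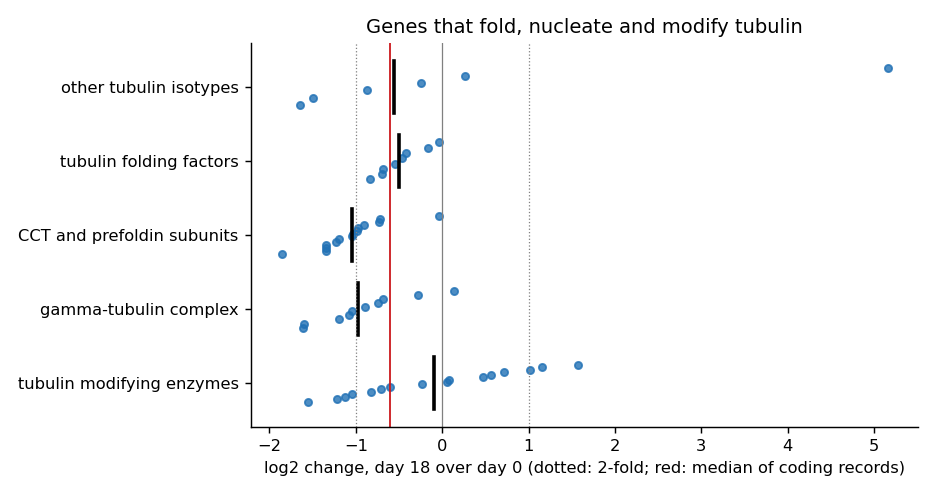
Log2 change from day 0 to day 18 of each gene with a mean of at least 1 FPKM in 5 lists of tubulin-related genes (points, 1 per gene), with the list median as a black bar, the median of coding records (-0.60) as a red line and 2-fold as dotted lines. The CCT and prefoldin and gamma-tubulin complex medians, -1.04 and -0.97, lie left of the red line, the enzyme median, -0.09, lies right of it, and the far right point is TUBB4A.

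Profiles most like those of the extreme members were looked for among coding records with a mean of at least 10 FPKM and at least a 2-fold range. Pearson's r of log2(FPKM + 0.1) over the 7 days was used as a description. The days share the starting cells, and each point is a pooled value with no error. For TUBB2B, the largest increase, 2780 records were compared and 3 had an r of at least 0.95. The 5 highest were ELAVL3, a neuronal RNA-binding protein (0.958), KIAA1211 (0.958), SLC22A17 (0.952), PHF21B (0.941) and PRG2 (0.941). ELAVL3 went from 17.9 to 48.4 FPKM between day 0 and day 18. For TUBG1, the largest decrease, 522 of 2779 records had an r of at least 0.95, so its profile is a common one. The 5 highest were C19orf10 (0.995), UAP1, an enzyme of amino sugar synthesis (0.995), ROCK2, a kinase that acts on the cytoskeleton (0.994), TTL (0.994) and HRAS, a small GTPase (0.993).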

How the data were processed

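Per the study's methods and the labels, the authors mapped paired-end reads to the hg19 genome using TopHat2. Transcripts were assembled by Cufflinks, and Cuffdiff2, run with its defaults, gave the expression levels. The versions of TopHat2, Cufflinks and Cuffdiff2 are not given in the sources used here. The deposited FPKM values are 1 per gene record and day, pooled over cultures, and 0 columns hold values of a single sample. The depth per sample is unknown, so no floor or interval was computed. The authors' own comparison columns (log2 fold changes, test statistics, p-values, q-values and calls) were not used. Of the deposited table only names, positions and test status were taken. A 0 with the status HIDATA was treated as missing (23 record-days over all records, 9 of them coding).

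Here, values were compared on log2(FPKM + 0.1) in Python 3.11.15 with pandas 2.3.3. A change was counted from 2-fold, against coding records with a mean of at least 1 FPKM. The functions were tested on simulated data. Sequences came from GENCODE v44lift37 (GRCh37) and were aligned with Biopython 1.88. Samples were grouped by the day in their titles. The text names all members, up to 4 genes of a pathway list with the largest change, the 5 records most like the extreme members and up to 3 genes of a marker list with the highest mean. DCX, COL1A1, TTC5, PAX6, HES5, MSI1, VASH1, SIRT2, HDAC6, TUBGCP6 and the records at the TUBB6 and TUBB4B loci were named outside that rule after their values were seen. The members, lists and comparisons were chosen with earlier results of these data known. Alternatives were another pseudocount, scale, fold threshold, last day, pool and record choice. The oligodendrocyte lineage markers and some coding ends are not reported here.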

Additional observations from a re-analysis of the deposited data

How the results depend on the processing

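The count of member records at least 2-fold higher at day 18 than at day 0, 0 as deposited, became 1 after recentring on the median coding change, 2 as shares of summed FPKM and 1 at a 1.5-fold threshold. The count lower, 1, became 2 with the record at the TUBB6 locus, an alternative chosen after seeing the data. Over the 6 steps between neighbouring days, the counts higher and lower, 0 and 0, became 4 and 5 at 1.5-fold and 2 and 1 as shares of summed FPKM. The calls as shares, made with no pseudocount, were all of TUBA4A, a record between 0.109 and 0.281 FPKM. Its log2 changes there were 1.01, 1.34 and -1.23. At 1.5-fold, the calls other than TUBA4A were TUBB3, higher from day 5 to day 11, and 3 records lower from day 0 to day 1. These were the merged alpha record, TUBA1C and TUBG1. The log2 change from day 0 to day 18 moved after recentring and as a share of summed FPKM to 0.41 and 0.53 for TUBA1C, 0.44 and 0.50 for TUBA4A, 0.58 and 0.70 for TUBB2A, and 1.20 and 1.32 for TUBB2B. For TUBB3 it passed 2-fold only as a share, at 1.12. These shifts follow from the construction of both scales, since the median coding change was -0.60. The change of share in percentage points went, from the pool of members to that of all beta isotypes, from -6.17 to 1.65 for TUBB2A, from 6.42 to 15.4 for TUBB2B and from -0.246 to 7.21 for TUBB3. Without records that merge several symbols, only TUBB2A was left of the beta members, and no share could be given.

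Lower counts after recentring and as shares of summed FPKM went from 2 to 1 and 0 for other tubulin isotypes, from 8 to 1 and 1 for CCT and prefoldin subunits, from 5 to 2 and 0 for the gamma-tubulin complex and from 4 to 0 and 0 for tubulin modifying enzymes. Higher counts of these enzymes went from 3 to 6 and 6, and to 5 without the filter on low values. The shares of coding records past 2-fold after recentring or as shares of summed FPKM are not given here. Counts on these scales therefore cannot be set against them. Of 89 alternative values, 58 stayed as they were in direction and side of the threshold or within 1.5 times, 28 moved, 3 passed 2-fold and 0 reversed a counted change. No paired analysis was possible because the files carry no column for a single replicate, and no replicate was left out in turn for the same reason. Day 18 has no value for the main alpha record, and levels near 0.1 FPKM such as those of TUBA4A are limited by an unknown depth.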
